A study of Caenorhabditis elegans with 2 samples.

Results

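ODD-2 belongs to the Odd-skipped family of C2H2 zinc-finger proteins. The regions described here are candidates inside introns and between genes from a ChIP-seq experiment on tagged ODD-2 in Caenorhabditis elegans late embryos. Each had a candidate summit in both replicates. They are 1244 of the 30000 candidate regions in the pooled set, which holds background as well as peaks. Of the 1244, 17 overlapped a peak that passed the authors' reproducibility threshold. The 1244 were chosen by measured values. The signal in the pooled set had to be at least 40, and each replicate had to hold a candidate summit within 100 bp of the pooled summit. The summit also had to lie in no exon, outside promoters (from 1000 bp before to 200 bp past the 5′ end of a protein-coding transcript), over 200 bp from any tRNA, snRNA, snoRNA or rRNA gene, and over 50 kb from odd-2.

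The data form 1 group with 2 biological replicates. Both are hermaphrodite late embryos of strain OP405, genotype unc-119(tm4063) III; wgIs405, a stable transgenic line that makes ODD-2 with GFP and FLAG at its C terminus. Chromatin from whole embryos was sheared by sonication and precipitated through the GFP tag with an anti-GFP antibody. The labels do not state the copy number of the transgene, and no untagged or input library was analysed here. In whole embryos, a site bound in few cells and a site bound weakly in many cells cannot be told apart.

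Odd-skipped proteins are named after a pair-rule gene of Drosophila, and their relatives act in gut and limb development in other animals. A transcription factor can be recovered at promoters, which direct transcription from close by, or at distal elements such as enhancers, which lie in introns or between genes and act over a distance. In C. elegans most introns and intergenic gaps are short, so a distal site is often still within a few kilobases of several genes.

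The regions were narrowed down in steps. Of the 29976 nuclear candidates, 14618 had their summit in an allowed place, and 1594 of these reached a signal of 40. A summit in each replicate was then found for 1244 of the 1594 (78.04%). Of the 350 left out at that step, 163 had a summit in replicate 1 only, 183 in replicate 2 only and 4 in neither. Over all 14618 regions in these places, 28.6% had a summit in each replicate. The pooled set was derived from both replicates, so a nearby summit in each is partly built in. These shares do not measure agreement beyond that. Candidate summits were dense, and 6.01% of all nuclear bases lay within 100 bp of a summit in either replicate taken alone.

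The sequences of 10 regions among the strongest are shown first, in ce11 coordinates and as the plus strand of 151 bases centred on the summit. The first 4 lie on the X chromosome and are shown because they share the word GCGNAGGGA, where N is any base. Capitals mark that word on either strand. The word sits within the MEX motif known from sites on X that recruit the dosage compensation complex, the machinery that lowers X expression in hermaphrodites.
F20B6.9, intergenic, chrX:4209163-4209313: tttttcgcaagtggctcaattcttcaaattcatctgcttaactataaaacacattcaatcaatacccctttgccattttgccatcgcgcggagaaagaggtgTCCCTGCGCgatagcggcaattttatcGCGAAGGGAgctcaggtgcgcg
mom-1, intron, chrX:6296494-6296644: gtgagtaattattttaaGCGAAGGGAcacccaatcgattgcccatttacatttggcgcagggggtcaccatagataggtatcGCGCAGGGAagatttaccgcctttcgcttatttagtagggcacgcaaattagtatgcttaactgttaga
ZK899.6, intergenic, chrX:9465849-9465999: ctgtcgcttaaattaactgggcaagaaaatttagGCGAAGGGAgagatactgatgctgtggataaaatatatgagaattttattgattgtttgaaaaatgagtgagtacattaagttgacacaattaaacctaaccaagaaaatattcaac
B0302.2, intergenic, chrX:17181321-17181471: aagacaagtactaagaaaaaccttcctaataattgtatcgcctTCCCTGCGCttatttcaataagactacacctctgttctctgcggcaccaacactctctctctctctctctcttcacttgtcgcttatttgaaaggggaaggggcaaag

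The next pair is shown because part of each aligned best to an annotated tRNA gene elsewhere in the genome, although no tRNA gene is annotated within 200 bp. Capitals mark the aligned bases, and both alignments lay close to the limit for being counted, as given below.
D2096.7, intergenic, chrIV:8375534-8375684: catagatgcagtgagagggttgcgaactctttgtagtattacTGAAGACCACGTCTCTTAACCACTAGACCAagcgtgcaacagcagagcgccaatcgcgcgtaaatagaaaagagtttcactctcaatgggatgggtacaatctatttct
srt-52, intron, chrV:53401-53551: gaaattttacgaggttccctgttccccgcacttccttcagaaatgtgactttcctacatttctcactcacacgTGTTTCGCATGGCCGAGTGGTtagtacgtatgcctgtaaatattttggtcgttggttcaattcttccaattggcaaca

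The last 4 show the range of sequence among the strongest autosomal regions. Capitals mark the word CTGCGTCTC in the region by cpt-1, CCGCCC in Y67D8A.2, GCGCAC in pal-1, and a stretch of 39 bases in wah-1 that occurs as 2 direct copies.
cpt-1, intergenic, chrII:12798794-12798944: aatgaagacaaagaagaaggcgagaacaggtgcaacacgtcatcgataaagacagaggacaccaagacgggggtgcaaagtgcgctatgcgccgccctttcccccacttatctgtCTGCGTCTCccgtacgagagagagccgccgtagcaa
Y67D8A.2, intron, chrIV:3233011-3233161: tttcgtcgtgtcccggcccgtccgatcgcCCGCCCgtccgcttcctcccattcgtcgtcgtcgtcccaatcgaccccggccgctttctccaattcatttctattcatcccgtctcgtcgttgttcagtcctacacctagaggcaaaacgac
pal-1, intron, chrIII:4805475-4805625: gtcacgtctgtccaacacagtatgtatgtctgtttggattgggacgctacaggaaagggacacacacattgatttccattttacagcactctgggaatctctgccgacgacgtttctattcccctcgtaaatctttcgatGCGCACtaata
wah-1, intron, chrIII:11997750-11997900: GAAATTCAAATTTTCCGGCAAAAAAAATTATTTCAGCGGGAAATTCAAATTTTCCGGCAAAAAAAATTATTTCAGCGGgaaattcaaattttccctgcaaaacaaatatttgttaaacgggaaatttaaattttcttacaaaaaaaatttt

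Most regions sat close to the minimum, and a few stood far above it. The signal is the authors' value per region against a control. It ran from 40.01 to 142 with a median of 43.9, and 748 of the 1244 regions lay below 45. A further 304 lay between 45 and 50, 170 between 50 and 60, and 22 at 60 or more. Just inside the minimum were the regions of BE10.4 (40.0069), pat-4 (40.0107) and idpc-7 (40.0202). Just outside were sri-6 (39.9936), nas-30 (39.997) and fil-2 (39.9983), each of which also had a summit in both replicates. The minimum therefore cuts through a continuous range of values.

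The strongest region lay in a gap of 350 bp between convergent genes, nearest to the 5′ end of D2096.7. Its signal was 142 in the pooled set, 56.1 in replicate 1 and 81.9 in replicate 2. It ranked 86th and 43rd among the 30000 candidates of those replicates, above all others of the 1244 regions in both. Second was the region in the first intron of rhgf-3, with a pooled signal of 89.98 and replicate signals of 41.96 and 44.3. The third strongest, by ZK899.6, had 79.9.

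The 12 strongest intronic regions included those of pal-1, mom-1 and ptp-3, genes with known roles in patterning, signalling or adhesion. The region in intron 4 of pal-1, a Caudal-family homeobox gene that specifies posterior lineages, had a pooled signal of 63.8, with 38.7 in replicate 1 and 21.3 in replicate 2. In mom-1, the Porcupine homologue needed for Wnt secretion, the pooled signal was 62.9, with 28.8 and 33.99 in the replicates. In ptp-3, a LAR-type receptor tyrosine phosphatase of axon guidance and synapse formation, the pooled signal was 62.5, with 33.1 and 26.7 in the replicates. Replicate 1 was the higher in pal-1 and ptp-3, and replicate 2 in mom-1.

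The other 9 of the 12 intronic regions lay in rhgf-3, srt-52, Y67D8A.2, ZK154.4, mbl-1, C07A9.9, wah-1, marc-5 and mbk-2. In srt-52, a predicted chemoreceptor gene, the pooled signal was 73.7, with 41.1 and 34.96 in the replicates. In Y67D8A.2 it was 71.6, with 39.5 and 27.7, and the summit lay within 200 bp of a miRNA gene. The intron of mbl-1, which encodes the muscleblind splicing regulator, gave 65.5, with 31.0 and 28.3. The repeated sequence in wah-1, the homologue of the mitochondrial apoptosis-inducing factor, gave 63.4, with 33.3 and 24.1. The intron of mbk-2, a DYRK-family kinase of the oocyte-to-embryo transition, gave 61.0, with 35.6 and 21.4. Replicate 2 was the higher in rhgf-3, ZK154.4, C07A9.9, mom-1 and marc-5, and replicate 1 in the other 7 of the 12.

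The 12 strongest intergenic regions were nearest to D2096.7, ZK899.6, F20B6.9, T05D4.2, F54F12.1, B0302.2, cpt-1, R09E10.5, din-1, szy-2, F57G12.1 and T28B8.1. The region by ZK899.6 had a pooled signal of 79.9, with 35.2 in replicate 1 and 43.7 in replicate 2. That by F20B6.9 had 74.7, with 30.6 and 46.1. That by T05D4.2 had 71.6, with 27.5 and 44.1. Replicate 2 was the higher in these 3. In the regions by F54F12.1 (42.2 and 23.4), B0302.2 (38.9 and 23.04) and cpt-1 (34.9 and 28.1), replicate 1 was the higher. The region by din-1, which encodes a corepressor that binds the steroid receptor DAF-12, gave 58.6, with 19.1 and 31.0.

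**Figure D1:**
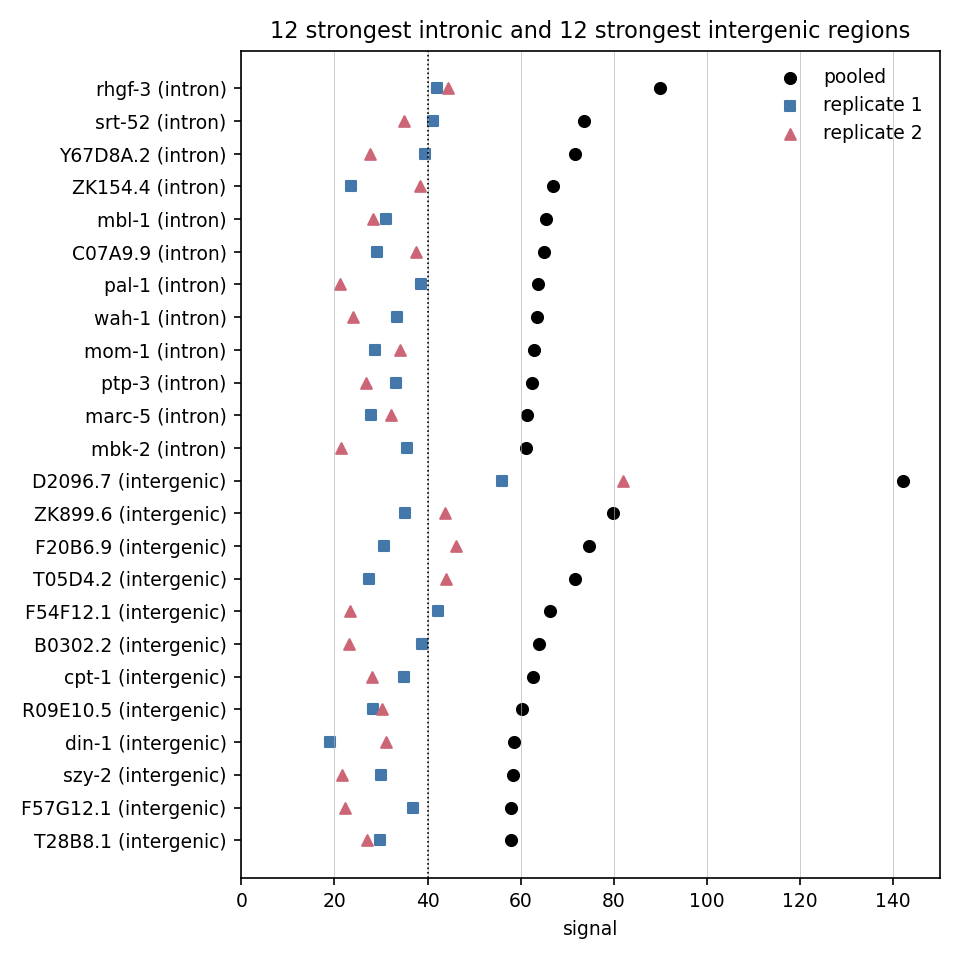
Signal of the 12 strongest intronic and the 12 strongest intergenic regions, by host or nearest gene. Black circles are the pooled set, blue squares replicate 1 and red triangles replicate 2, and the dotted line is the pooled minimum of 40. The region by D2096.7 stands apart at 142, and the replicate points lie to the left of the pooled point in every region shown.

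Signals of the replicates added up to about the pooled signal. The sum divided by the pooled signal had a median of 0.962 and lay between 0.875 and 1.02 in the middle 80% of regions. Replicate 1 signals had a median of 21.8 (range 13.2 to 56.1) and replicate 2 signals a median of 20.7 (range 12.7 to 81.9). The replicates were within 1.5 times of each other in 877 of 1244 regions (70.5%), and replicate 2 was the higher in 541 (43.5%). The summits of the replicates lay a median of 19 bp apart, and within 20 bp of each other in 52.6%. Scale differences between the files were not removed.

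Within these regions, a high signal in 1 replicate went with a low signal in the other. Spearman's rho between replicate signals was −0.40 over the 1244 regions. It was −0.72 over the 748 of signal 40 to 45, −0.71 over the 304 of 45 to 50 and −0.73 over the 170 of 50 to 60. Choosing on a pooled value near the sum of the replicates fixes much of this direction. Without the minimum of 40, rho was 0.09 over the 4182 regions in the same places with a summit in each replicate. It was 0.15 over the 9020 such nuclear regions of all kinds. These wider sets were still cut, since each list stops at 30000 regions. Over the 4182 the lowest signals were 24.7 in the pooled set, 13.2 in replicate 1 and 12.7 in replicate 2. Within these cut sets the orders of the replicates were only weakly related, and agreement without any cut was not measured.

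**Figure D2:**
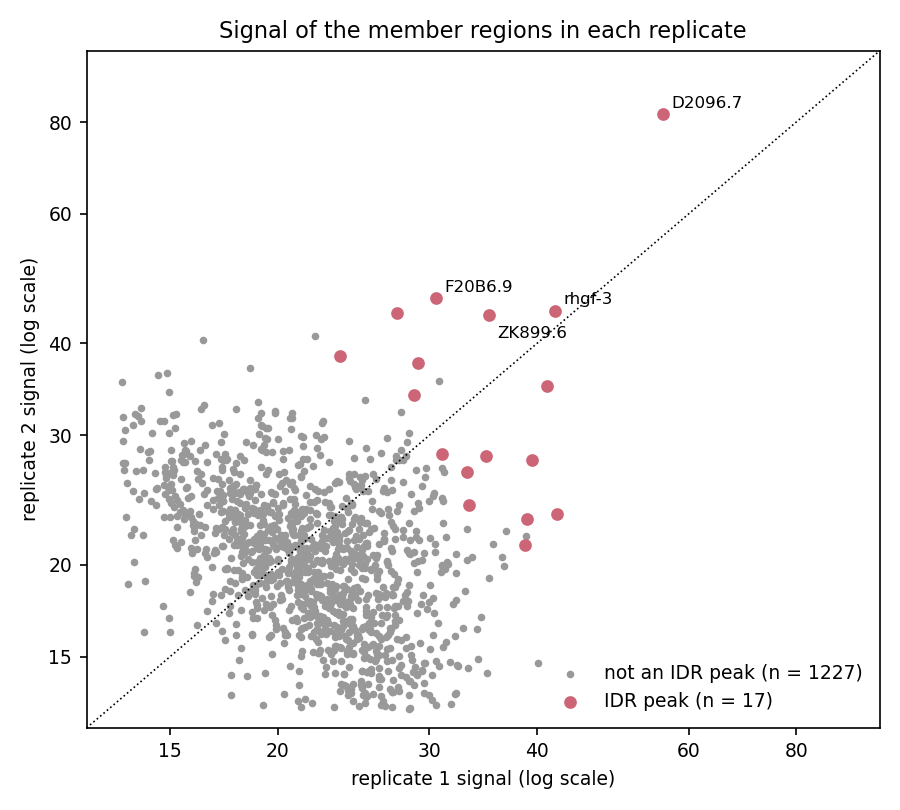
Signal in replicate 1 against replicate 2 for the 1244 regions, both on log axes, with the dotted line where they are equal. Red points are the 17 that overlap an IDR peak and grey points the other 1227. Grey points form a band running from upper left to lower right, and the red points lie along its outer edge.

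Ranks restate the same replicate signals, which the rule also used, so they are a description and add no support. The median rank was 4305.5 of 30000 in replicate 1 and 4858 in replicate 2. Only 26 of the 1244 regions (2.09%, exact 95% interval 1.37 to 3.05) were among the top 1000 of both replicates, against 82 of 982 promoter regions chosen by the same signal and summit rule (8.35%, 6.70 to 10.3). A rank below the top 5000 in at least 1 replicate was found for 988 regions (79.4%), and in both for 168 (13.5%). All 22 regions of signal 60 or more were in the top 5000 of both. Intervals here cover counting error only, and neighbouring regions are not independent.

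**Figure D3:**
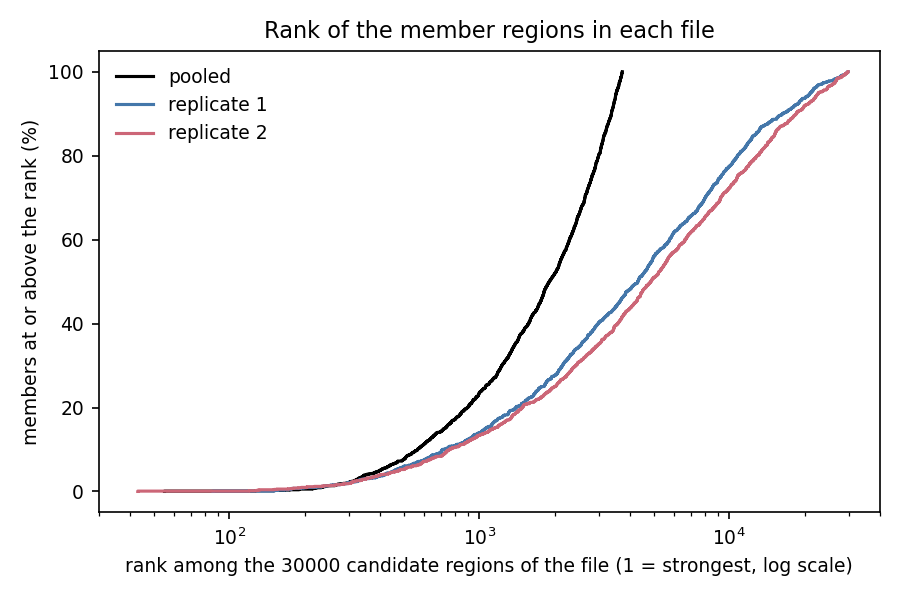
Cumulative share of the 1244 regions against their rank among the 30000 candidates of the pooled set (black), replicate 1 (blue) and replicate 2 (red), with rank on a log axis. The pooled curve ends at rank 3734 because of the minimum, while the replicate curves, with medians of 4305.5 and 4858, run on almost to 30000.

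Few of the regions passed the authors' own reproducibility threshold, the irreproducible discovery rate (IDR). Of the 1244, 17 (1.37%, 0.798 to 2.18) overlapped a peak of the IDR set, where 0.844% of all nuclear candidates and 0.164% of candidates in the same places did so. IDR peaks are themselves chosen for high signal in both replicates, so these shares are a description. Of the promoter regions under the same rule, 82 (8.35%) overlapped an IDR peak. All 17 had a signal of 60 or more, where they were 17 of 22 regions (77.3%, 54.6 to 92.2). The 5 of signal 60 or more without an IDR peak were in marc-5, mbk-2, mig-38, nhr-34 and by R09E10.5.

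Some regions with higher signal were left out because 1 replicate had no summit nearby. The strongest were 2 in an intron of hlh-1, the MyoD homologue of body wall muscle. Their pooled signals were 123 and 121, and their replicate 1 signals 138 and 123. Replicate 2 held a single candidate summit in the whole of hlh-1, with a signal of 23.4, and it was over 100 bp from both. Next came a region by pot-3, a telomere-binding protein gene, with a pooled signal of 74.7 and 47.2 in replicate 1, and a region in larp-1 with 72.7 and 34.2 in replicate 2. A region by let-60, the Ras gene, had 67.3 and 35.4 in replicate 1.

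The word GCGNAGGGA was found within 100 bp of the summit in 4 of the 264 regions on X (1.52%, 0.414 to 3.83) and in 1 of the 980 on autosomes (0.102%, 0.00258 to 0.567). The 4 on X were those by ZK899.6, F20B6.9 and B0302.2 and in mom-1, shown above, and the autosomal region lay in cank-26 with a signal of 41.5. The word was chosen after the sequences of the strongest X regions had been seen, so its frequency there has no test. The 4 were among the 6 regions on X with a signal of 60 or more, and the other 2 were in ZK154.4 and mbl-1. None of the 16 autosomal regions of that signal held the word, which allows a share of up to 20.6% (upper exact limit). Among other candidates in the same places, 7 of 2579 on X (0.271%) and 8 of 10795 on autosomes (0.0741%) held it. The 7 on X include the 5 described next.

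The word was also found at X regions left out for want of a second summit. Of the 350 regions at the signal minimum without a summit in each replicate, 70 were on X and 5 of these held the word (7.14%, 2.36 to 15.9), against 0 of 280 on autosomes (upper exact limit 1.31%). In an intron of Y41G9A.17 the pooled signal was 62.6 and replicate 1 gave 32.7. By W02H3.3 a pooled signal of 59.1 was matched in replicate 1 only (41.9), and a neighbouring region of 41.7 in replicate 2 only (27.3). The regions by gtr-1 (50.1) and fbxb-58 (48.2) were matched in replicate 2 only, with 39.8 and 42.9998. Of the 568 X regions with both summits but a signal under 40, 0 held the word, which allows a share of up to 0.647% (upper exact limit). Over the whole genome the word occurred 144 times on X, or 8.13 per Mb, and 4.92 to 6.28 times per Mb on the autosomes.

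A best alignment to an annotated tRNA gene was found for 6 of the 1244 regions (0.482%, 0.177 to 1.05) and for 29 of 13374 other candidates in the same places (0.217%, 0.145 to 0.311). In the D2096.7 region it covered 30 bases with 86.7% identity, and in srt-52 21 bases with 95.2% identity. Both had an E value of 0.000863, close to the limit of 0.001 and the weakest of the 6. How many such alignments would arise among unrelated sequences was not computed. The other 4 regions, by or in ani-3, pho-14, Y55F3BR.2 and Y113G7B.11, had signals of 40.04 to 44.1 and E values of 3.08e-08 to 0.00024. RefSeq lists a tRNA pseudogene within 200 bp of 5 regions (0.402%) and of 18 other candidates (0.135%). An alignment describes the letters and does not show that the stretch is transcribed.

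The regions lay somewhat less often in introns than the other candidates in these places, while median intron and gap lengths were close. The summit lay in an intron of a protein-coding gene for 664 (53.4%, 50.6 to 56.2), against 57.8% (56.96 to 58.6) of the 13374 others, and between genes for 580. At signals of 60 or more 63.6% of the 22 regions were intronic, but these are too few to say whether the lower share held there. Of the 350 regions at the signal minimum without a summit in each replicate, 192 were intronic. Host introns had a median length of 884 bp, against 836 bp, and 204 of the 664 (30.7%) were first introns, against 28.5%. Intergenic gaps had a median length of 7208.5 bp, against 7494 bp. Of the 580 regions in gaps, 328 lay between tandem genes, 198 between divergent and 54 between convergent genes. The convergent share was 9.31% (7.07 to 11.97), against 12.3% (11.4 to 13.2) of the others, and these intervals overlap. In other candidates with a summit in each replicate it was 11.4%, inside the interval of the regions.

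Across chromosomes, X held 264 of the regions (21.2%, 18.98 to 23.6), against 19.3% (18.6 to 19.96) of other candidates in the same places. Chromosome V held 160 (12.9%), against 16.8%. The middle of 3 equal parts of each chromosome held 405 (32.6%, 29.96 to 35.2), against 28.9% (28.1 to 29.7). The summit base was masked as repeat in the RefSeq genome for 576 (46.3%, 43.5 to 49.1), against 48.9% of the others and 33.1% of the promoter regions. Only 1 region, in frl-1, had 51 bases at its summit that occur elsewhere in the genome. Its pooled signal was 44.6.

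**Figure D4:**
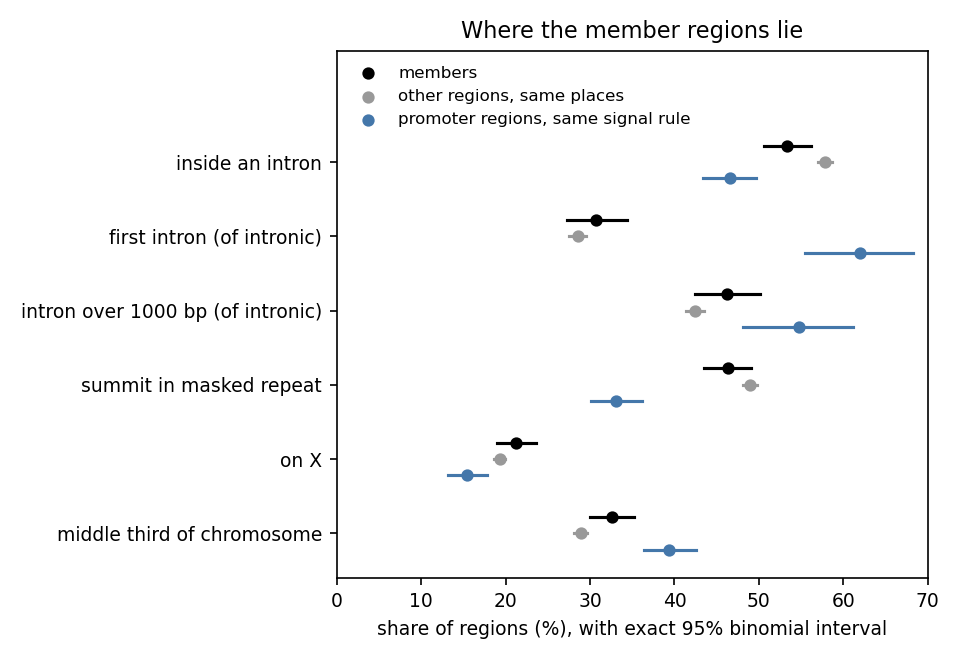
Share of regions with each property, as points with exact 95% binomial intervals, for the 1244 regions (black), the 13374 other candidates in the same places (grey) and the 982 promoter regions under the same signal rule (blue, where an intron means a summit inside a gene). Black points lie within 5 percentage points of the grey ones in every row. First introns are 30.7% in black against 61.97% in blue. That contrast follows largely from the rules, since blue summits lie near 5′ ends and black ones away from them.

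Base composition changed with signal. The median share of G and C bases within 100 bp of the summit was 32.8%, against 32.3% in the other candidates and 35.3% in the promoter regions. It was 32.3% at signals of 40 to 45, 33.3% at 45 to 50, 33.8% at 50 to 60 and 42.04% at 60 or more. The 22 strongest also had fewer masked summits, 4 of 22 (18.2%, 5.19 to 40.3). They are few, and the classes were cut on the signal that chose the regions.

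**Figure D5:**
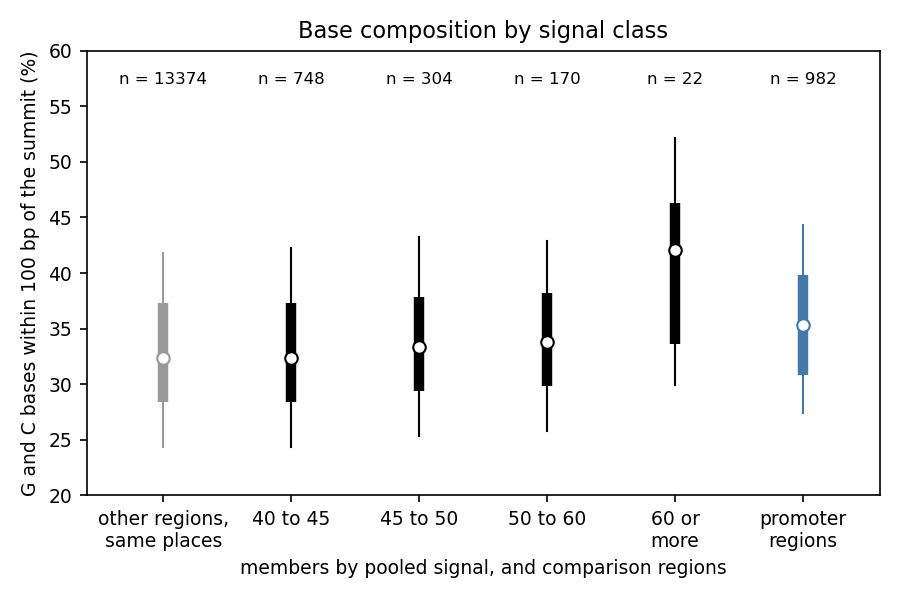
G and C bases within 100 bp of the summit, for other candidates in the same places (grey), the 1244 regions in 4 classes of pooled signal (black) and promoter regions under the same rule (blue). Circles are medians, thick bars the middle 50% and thin lines the middle 80% of regions. The median is 42.04% in the 22 regions of signal 60 or more and 32.3% to 33.8% in the weaker classes.

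Short words known from other factors were looked for on either strand, up to 100 bp away from the summit. ACAGTAGC, described for Odd-skipped proteins of Drosophila, was found in 6 regions (0.482%, 0.177 to 1.05), against 0.419% of other candidates. Its variant ACAGAAGC was found in 5 (0.402%), against 0.441%. TGATAA, read by GATA factors such as those of the gut, was found in 192 (15.4%), against 16.5%. The E-box words CACGTG and CAGCTG of bHLH factors were found in 2.41% and 2.97%, against 2.72% and 3.19%. The intervals of the regions cover the share of the other candidates for all 5 words.

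For 3 GC-rich words the intervals also cover the share of the other candidates. CCGCCC was found in 52 regions (4.18%, 3.14 to 5.45) against 3.60%, GCGCAC in 44 (3.54%, 2.58 to 4.72) against 2.92%, and CGCACA, which overlaps it, in 59 (4.74%) against 4.04%. In 1656 replicate 2 candidates taken alone (without replicate 1), the GCGCAC share was 2.36%. No background share was computed for that set, so the 2.92% is not its comparison. In the promoter regions these shares were 8.35%, 7.64% and 7.23%. At signals of 60 or more CCGCCC was found in 3 of 22 regions and GCGCAC in 4 of 22. No match says only that these letters are not in this window.

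A few words stood away from the background. GAGAGAGA was found in 36 regions (2.89%, 2.03 to 3.98), against 1.53% (1.32 to 1.75) of other candidates and 3.05% of the promoter regions. Its share was 2.01% with a signal minimum of 30 and 2.06% with the promoter window at all genes. No background shares were computed for those 2 sets. CTGCGTCTC was found in 27 (2.17%, 1.44 to 3.14), against 0.972% (0.813 to 1.15) of other candidates and 2.44% of the promoter regions. This word was chosen after the data were seen, so its frequency has no test. Other candidates with a summit in each replicate held it in 1.33% (0.946 to 1.81), and that interval overlaps. GTTCGA, part of the B box inside tRNA genes, was less frequent, in 57 (4.58%, 3.49 to 5.90) against 6.54%. In 1633 replicate 1 candidates taken alone, the GTTCGA share was 6.31%, with no background share computed for that set. CGAACC, from the same box and partly overlapping it, was found in 2.89% against 2.95%. Over the 1128 words of 6 bases present in at least 5% of regions, the ratio of shares to the other candidates had a median of 1.02 and ran from 0.678 to 1.55. Among the 1974 words present in at least 2%, 10 had a ratio over 1.5 and 4 a ratio under 0.67. ACAGGG was found in 4.18% against 2.24% (ratio 1.87), and CGCATC in 4.02% against 2.21% (ratio 1.82). These words were picked out by their ratios, so no test was made.

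The 1244 regions belonged to 1105 host or nearest genes, of which 980 had 1 region, 110 had 2 and 15 had 3 or more. The most were found in hmr-1, the classical cadherin of C. elegans, with 7 regions of signal 40.1 to 49.6 spread over a gene of 58913 bp that held 17 other candidates. The genes mbl-1 (43.4 to 65.5), mbk-2 (44.5 to 61.0) and egl-18, a GATA factor of the epidermis (44.8 to 54.9), had 4 each. Those with 3 were din-1, nhr-41, R03D7.8, Y75B8A.6, D1046.4, kin-20, prk-2, F53A10.2, sea-2, T01D1.8 and rbf-1. In mbl-1 the second strongest region had 57.8 in the pooled set, with 22.1 in replicate 1 and 40.9 in replicate 2. Another region of the set lay within 2 kb for 92 of the regions (7.40%).

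Homeobox transcription factor genes were host or nearest gene of 17 regions (1.37%, 0.798 to 2.18), against 1.25% of other candidates. The 16 genes were ceh-37, ceh-58, ceh-62, ceh-86, dve-1, egl-5, irx-1, lin-11, lin-39, mab-5, mls-2, pal-1, unc-4, unc-62, zag-1 and zfh-2. Their signals ran from 40.8 to 63.8 with a median of 43.5, next to 43.9 over all 1244, and pal-1 alone overlapped an IDR peak. The Hox genes lin-39 (42.2), mab-5 (47.3) and egl-5 (46.8), which pattern the body axis, each had 1 intergenic region. After pal-1 the highest were zfh-2 with 49.95, from 28.8 and 20.1 in the replicates, and unc-4 with 49.5, from 32.8 and 16.4.

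Genes of other developmental transcription factors had 34 regions (2.73%, 1.90 to 3.80), against 1.98% (1.75 to 2.23). The list is not complete, and the GATA factor egl-18, with 4 regions and 6 other candidates, was not counted in it. They lay by or in ast-1, cfi-1, daf-12, daf-16, die-1, dmd-6, egl-27, ets-4, fkh-2, fkh-7, fkh-10, hbl-1, klf-1, klu-1, lag-1, let-381, lin-14, sem-4, sptf-1, tbx-7, tbx-33, tbx-34, tlp-1, tra-1, unc-55, zip-5, ztf-6, ztf-27 and ztf-29. The highest was in egl-27, which encodes an MTA-like chromatin regulator, with 59.7, from 30.8 in replicate 1 and 35.5 in replicate 2. In lin-14, a heterochronic gene and target of the lin-4 miRNA, an intronic region had 53.9, from 29.4 and 25.6, and an intergenic region 48.1, from 13.9 and 32.7. In lag-1, the CSL effector of Notch, the values were 49.6 and 40.1. No region of this list overlapped an IDR peak.

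Nuclear hormone receptor genes, which encode ligand-regulated or orphan receptors, had 21 regions (1.69%, 1.05 to 2.57), against 1.67%. They were daf-12, nhr-1, nhr-2, nhr-11, nhr-25, nhr-32, nhr-34, nhr-40, nhr-41, nhr-45, nhr-46, nhr-62, nhr-70, nhr-88, nhr-91, nhr-258 and unc-55. The highest was in nhr-34 with 60.8, from 24.2 and 29.4 in the replicates, followed by nhr-11 with 54.5, from 27.4 and 27.7. The bHLH genes hlh-30, the TFEB homologue (50.2 and 45.3), and hif-1, the hypoxia-inducible factor (40.6), had 3 regions (0.241% against 0.381%).

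Muscle genes had 12 regions (0.965%, 0.499 to 1.68), against 0.703%. The genes were dim-1, atn-1 (alpha-actinin), zyx-1 (zyxin), unc-89 (obscurin), unc-22 (twitchin), tln-1 (talin), unc-52 (perlecan), pat-2 (alpha integrin), pat-4 (integrin-linked kinase) and tnt-4 (troponin T). The highest was in dim-1 with 59.2, from 30.3 and 24.8 in the replicates, followed by atn-1 with 51.9, from 28.0 and 22.3. Signals ran down to 40.01 in pat-4, and no region of the list overlapped an IDR peak.

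Genes of axon guidance and cell adhesion had 29 regions (2.33%, 1.57 to 3.33), against 1.77%, and 24 of the 29 were intronic. They fell on 19 genes, with 7 in hmr-1 and the highest in ptp-3. Signalling ligands and receptors had 18 regions on 18 genes (1.45%, 0.860 to 2.28), against 0.957%, with a median signal of 41.3 and a highest of 49.2. Ion channel genes had 25 (2.01% against 2.22%), basement membrane and extracellular matrix genes 7 (0.563% against 0.531%) and collagen genes 4 (0.322% against 0.493%). For each of the 10 lists as written, the exact interval of the regions covers the share of the other candidates. For other developmental transcription factors, counted without egl-18, the lower limit of 1.90% is close to that share of 1.98%.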

How the data were processed

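ChIP-seq of GFP-tagged ODD-2 was run on 2 biological replicates. The deposited lists give a signal per region, which the authors computed against a control, per the deposited file list. A further deposited column holds a score with values below 0 and was not used. The authors' candidate sets hold 30000 regions each for replicate 1, replicate 2 and the pool, and the IDR set 260. The pooled candidate set is labelled as peaks and background, as input for IDR. Read depth is unknown. The aligner was not given in the sources used here, nor was the peak caller.

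Genes came from Ensembl release 115, sequence and repeat masking from RefSeq, both for the assembly of ce11. Windows of 201 bases round each summit were searched for words and aligned to annotated tRNA, snRNA, snoRNA and rRNA genes with blastn 2.17.0 (seed word size 11, E value limit 0.001). Shares carry exact 95% Clopper-Pearson intervals, with no tests. Python 3.11.15, numpy 2.4.6, scipy 1.17.1 and pandas 2.3.3 were used, and the steps were tested on simulated data.

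The regions, lists and most words were chosen with earlier results of these data known. Named genes are those of the 12 strongest intronic and 12 strongest intergenic regions, of the transcription factor and muscle lists, and of 3 regions either side of the minimum. GCGNAGGGA, CTGCGTCTC, the tRNA alignments, genes with 3 or more regions and regions without a summit in each replicate were added after values were seen. Alternatives changed the signal minimum, summit distance, promoter window, RNA gene distance, replicate and word window.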

Additional observations from a re-analysis of the deposited data

How the results depend on the processing

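The number of regions, the intronic and IDR shares, Spearman's rho, median GC content, the word shares, the share with another region within 2 kb and the count before annotation were recomputed under other settings, giving 257 values. Gene list, chromosome, intron, gap and repeat details, tRNA alignments, ranks and signal medians were not recomputed. Of the 257, 212 stayed within the interval of the reported value (or within 1.5 times for counts), 45 moved and 0 changed sign. Only rho could change sign, since shares, counts and GC content cannot be negative. With a signal minimum of 30 there were 3679 regions, of which 56.75% were intronic and 0.4621% overlapped an IDR peak, and Spearman's rho between replicates was -0.01997. With a minimum of 60 there were 22 regions, of which 63.64% were intronic and 77.27% overlapped an IDR peak, with a rho of -0.2174 and a median GC content of 42.04%. With the promoter window at all genes, noncoding ones included, 56.97% were intronic. The cause was not tested. The other settings for the number of regions, the intronic share, the IDR share, rho and GC content stayed within those limits, and rho could not be computed with 1 replicate left out. Of 196 word shares, 34 moved, mostly with the word window or the minimum of 60. Among the 2938 other candidates with a summit in each replicate, GAGAGAGA was in 1.43%, GTTCGA in 6.81% and CTGCGTCTC in 1.33% (0.946 to 1.81, which overlaps the reported interval of 1.44 to 3.14). Leaving out the regions near tRNA pseudogenes, chosen after seeing the data, moved none of the values. Within 5 kb, 17.44% had another region of the set. No paired analysis was possible because the data hold 1 group. Depth is unknown, so a region missing from 1 replicate cannot be called absent there.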
